A study of Caenorhabditis elegans with 10 samples.

Results

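The nuclear genes for the mitochondrial ribosome and the respiratory chain were taken from the authors' comparison of sorted cells of Caenorhabditis elegans by their names. Protein-coding genes named mrpl, mrps, nuo, gas, sdha, sdhb, sdhd, mev, isp, ucr, cyc, cox, atp, asb or asg were members, without atp-6, which lies on the mitochondrial genome. There were 98 such genes among 46272 in the table, 66 for the ribosome and 32 for the respiratory chain and ATP synthase. The cells came from untreated worms labelled wild type and kept on standard NGM plates, and all were sorted by fluorescence. ASH, the first group, was 5 libraries of cells carrying a YFP label for the ASH neurons, a pair of head sensory neurons for noxious stimuli, and non-ASH was 5 libraries of cells without YFP, whose types the labels do not specify. The promoter driving YFP, the strain's other alleles and the age of the worms were not given in the sources read here. The table analysed held 1 FPKM value (fragments per kilobase per library size, a level per length) per group and the authors' tests, so no value carries a spread over libraries. Where FPKM values are set against each other, ASH comes first and non-ASH second. The labels do not state whether libraries are separate cultures or sorts, so the authors' p-values may measure a technical spread only.

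Mitochondria keep a small genome of their own that codes for a few core subunits of the respiratory chain and for ribosomal and transfer RNAs. Nuclear genes code for the proteins of the mitochondrial ribosome, which translates those core subunits, and for the remaining subunits of complexes I to IV and of ATP synthase. Complexes I and II feed electrons from NADH and succinate to ubiquinone, complex III passes them to cytochrome c, complex IV reduces oxygen, and ATP synthase uses the resulting proton gradient. In the worm these genes are known from mutants with altered lifespan or stress resistance, and neurons are known for a high demand for ATP.

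The sort can be read from marker genes. Of 8 ASH markers 7 were higher in ASH, and the authors' deposited table listed osm-10, an ASH gene of osmotic avoidance, at 142 FPKM in that fraction against 1.12. Markers of other cells were present in both fractions. The 10 germline markers summed to 1876 FPKM in ASH against 2328, 0 of them passed the test (0 higher and 2 lower at an unadjusted DESeq2 p under 0.05, 1 lower by Cuffdiff's q), and the authors' deposited table gave gld-1, a regulator of germline mRNAs, 374 and 467 FPKM. Single germline markers ranged from 0.183 to 816 FPKM in ASH and from 0.131 to 1019 in non-ASH, with 3 positive and 7 negative signs. Intestine markers summed to 7668 FPKM in ASH against 2055 with 3 of 10 higher (4 higher and 1 lower by Cuffdiff's q). Their signs were 9 positive and 1 negative, and asp-1 alone had 3660 and 692 FPKM. Pharynx markers summed to 49.1 and 493 with 5 of 8 lower, and epidermis markers to 15.7 and 36.9 with 1 of 5 higher and 2 lower. Body wall muscle markers summed to 2781 and 2478 FPKM with 1 of 8 higher, unc-54 at 403 and 151. Their signs were 4 positive and 4 negative, with a median log2 fold change of -0.001. Pan-neuronal genes summed to 1215 and 647 with 1 of 10 higher, 6 positive and 4 negative signs and a median of 0.27. None of these markers was listed at 0 in either group. Their part in the values below was not tested, and in sorted bulk samples fewer cells of a type cannot be told apart from less RNA per cell.

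Few genes of the mitochondrial ribosome and respiratory chain passed the authors' tests between the ASH and non-ASH fractions. All 98 members had an adjusted p from DESeq2, the authors' count-based test, and none was listed at 0 in either group. At an adjusted p under 0.05, 0 were higher in ASH and 3 were lower, in a table where 5.32% of 16802 tested genes were higher, 4.44% lower and 9.76% either. Among the 9921 tested genes with at least 5 FPKM in either group, as every member had, 718 were higher and 563 (5.67%) lower. At an unadjusted DESeq2 p under 0.05 the members counted 1 higher and 6 lower. Cuffdiff, the authors' other tool, called 0 members at a q under 0.05 against 7.11% of the same tested genes in either direction, and at its unadjusted p under 0.05 it had 0 higher and 2 lower.

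The fold changes themselves were small. The median DESeq2 log2 fold change (ASH over non-ASH) was 0.09 over the members and -0.09 over all tested genes, and its median absolute size was 0.18 against 0.56. Over the 9921 tested genes with at least 5 FPKM in either group the median was -0.002 and the median absolute size 0.45, so that the members' median lay 0.18 above that of all tested genes and 0.09 above that of genes at this floor. By DESeq2's fold change, 71 members (72.4%) lay within 1.2-fold and 95 (96.9%) within 1.5-fold. This compares with 26.2% and 51.5% of all tested genes and 31.5% and 59.9% of those at the floor. Past 2-fold in either direction by DESeq2 lay 1 member (1.02%), cyc-2.2, against 28.6% of tested genes and 22.8% at the floor. In FPKM mrps-31 was past 2-fold as well, at 2.02-fold, and mrpl-1 and mrps-30 were past 1.5-fold, all with more in non-ASH. Neither background is matched for level. Median FPKM was 75.8 in ASH and 69.9 in non-ASH for the members, 6.41 and 6.69 for all tested genes, and 23.3 and 26.9 at the floor. The part of level in these shares was not tested. A positive sign was seen for 63 members (64.3%) and a negative sign for 35, where 45.7% of all tested genes and 49.9% at the floor were positive. The signs by DESeq2 and Cuffdiff differed for 9 members, all positive by DESeq2, whose absolute DESeq2 log2 fold change was at most 0.06. In FPKM, 54 of the 98 members were higher in ASH. An adjusted p above 0.05 does not show that levels were equal: of 1702 tested genes with a mean level between 49.96 and 116 FPKM, where the middle of the members lies, 157 passed, and the smallest change that passed among them was 0.45 on the log2 scale.

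Levels across the members spanned a range that was shared by both fractions. On the FPKM scale the highest member was cyc-2.1, a cytochrome c, to which the authors' deposited table gave 1731 FPKM in ASH against 1302. At the low end were cyc-2.2 with 7.16 FPKM in ASH and cox-10, a protoheme IX farnesyltransferase gene, with 9.80 in non-ASH, as the authors' deposited table has them. The span was 242-fold in ASH and 133-fold in non-ASH. Across the 98 genes, log2 levels in ASH and non-ASH had a Pearson correlation of 0.97, given as a description, since the genes share their libraries. ATP synthase members had a median of 709 FPKM in ASH against 579.9, while ribosomal proteins of the large subunit had 62.6 and 59.9.

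**Figure D1:**
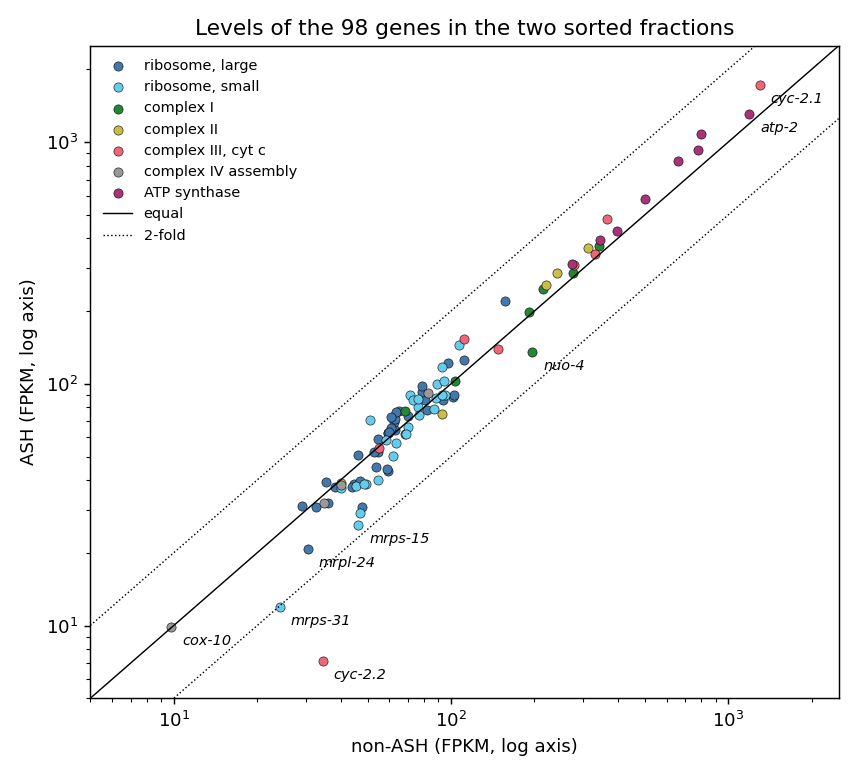
Level of each of the 98 genes in non-ASH (x axis) and ASH (y axis), both in FPKM on log axes, 1 point per gene and coloured by complex, with lines for equal levels and for 2-fold differences. Points lie along the line of equality from cox-10 near 10 FPKM to cyc-2.1 with 1302 in non-ASH, and cyc-2.2 stands apart at 7.16 in ASH and 34.5 in non-ASH.

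The 39 proteins of the large subunit of the mitochondrial ribosome had a median log2 fold change of 0.10, 24 positive and 15 negative, with 0 higher and 1 lower. The one that fell was mrpl-24, to which the authors' deposited table gave 20.7 FPKM in ASH against 30.4, and a DESeq2 log2 fold change of -0.56 (adjusted p = 0.0363). It was also the lowest of the subunit in ASH. On the opposite strand it overlaps C09D4.1 in the WBcel235 annotation, a gene of 7.51 FPKM against 7.73 in the authors' deposited table. At the other end was mrpl-36, the most abundant of the subunit and the one with the largest positive value, at 221 FPKM against 157 in the authors' deposited table. Its log2 fold change of 0.55 did not pass (DESeq2 adjusted p = 0.342). By DESeq2 all 39 lay within 1.5-fold, while in FPKM mrpl-1 was 1.54-fold higher in non-ASH.

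Small subunit proteins, 27 genes, had a median of -0.002 with 13 positive and 14 negative, and again 0 were higher and 1 lower. This was mrps-15, to which the authors' deposited table gave 26.2 FPKM in ASH against 46.4, and a DESeq2 log2 fold change of -0.75 (adjusted p = 0.0299). On the same strand it overlaps hbs-1 in the WBcel235 annotation, at 11.1 FPKM and 18.4 with a log2 fold change of -0.56 (DESeq2 adjusted p = 0.115) in the authors' deposited table. How the authors' counting treated such reads was not given in the sources read here, so the value for mrps-15 is uncertain. For mrps-31 the authors' deposited table gave the most negative value of the subunit, -0.81, from 11.9 FPKM against 24.1, which did not pass (DESeq2 adjusted p = 0.107). The largest positive values, 0.58 for mrps-28 (DESeq2 adjusted p = 0.283) and 0.54 for mrps-11 (DESeq2 adjusted p = 0.211) in the authors' deposited table, did not pass either, and mrps-11 was the most abundant at 145 FPKM in ASH. The gene named mrps-18C carries in the table the description of a large subunit protein, L3, so its place in this group is uncertain. It had 56.8 FPKM in ASH against 63.2.

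Complex I, the NADH dehydrogenase, had 7 members, of which 6 were positive and nuo-4 was lower. For nuo-4, an accessory subunit gene, the authors' deposited table gave 136 FPKM in ASH against 197, and a DESeq2 log2 fold change of -0.43 (adjusted p = 0.00903). This was the smallest adjusted p of all members, with a change of under 1.5-fold in FPKM. The other 6 had log2 fold changes from 0.02 for nuo-6 to 0.20 for nuo-1 in the authors' deposited table. Among them nuo-6, known from long-lived mutants, was listed at 288 FPKM against 275, and gas-1, known from mutants hypersensitive to volatile anaesthetics, at 77.02 against 68.5 in the authors' deposited table. The most abundant was nuo-3, at 373 FPKM in ASH against 342. Within this complex 1 gene passed the test and the other 6 differed by less than 1.2-fold, and the difference between nuo-4 and the other subunits was not tested.

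Complex II, succinate dehydrogenase, had 5 members with log2 fold changes between -0.19 and 0.28, none past the threshold (0 by Cuffdiff's q and 0 at an unadjusted DESeq2 p under 0.05). Its cytochrome subunit gene mev-1, known from oxygen-sensitive mutants, was listed at 365 FPKM in ASH against 313 in the authors' deposited table. The other membrane anchor, sdhd-1, had the largest value, 0.28, from 286 FPKM against 241 in the authors' deposited table. Both flavoprotein genes were less abundant than the anchors and had negative signs. They were sdha-2, at 75.2 FPKM against 92.5 with -0.19, and sdha-1, at 38.8 against 40.01 and a value of -0.12, in the authors' deposited table.

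Complex III and cytochrome c, 8 members, held both the largest negative value of the set and 2 of the larger positive ones of the respiratory chain. The Rieske iron-sulfur protein gene isp-1, known from long-lived mutants, had 480.2 FPKM in ASH against 365, a log2 fold change of 0.42 (DESeq2 adjusted p = 0.301) in the authors' deposited table. For ucr-2.1, a core subunit, the authors' deposited table gave 154 FPKM against 111 and 0.47 (DESeq2 adjusted p = 0.171, unadjusted 0.0348), the smallest adjusted p among members with a positive sign. Neither passed the DESeq2 threshold, and 0 of the 8 passed in either direction by DESeq2 or by Cuffdiff. At an unadjusted DESeq2 p under 0.05 the group had 1 higher, ucr-2.1, and 1 lower, cyc-2.2.

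All 4 members named cox were assembly factors of complex IV, not subunits. They ranged from -0.15 for the copper chaperone gene cox-17, at 32.2 FPKM against 34.7, to 0.23 for cox-15, a heme A synthesis gene, at 91.6 against 82.3, in the authors' deposited table. Subunits of complex IV stand in the table under other names. By current symbols 7 of them could be read, cox-4, cox-5A, cox-5B, cox-6A, cox-6B, cox-6C and cox-7C, which are not members by name. They had log2 fold changes from 0.33 to 0.54, all positive and none past the threshold, with a median of 0.36 and levels of 489 to 1613 FPKM in ASH against 391 to 1261 in non-ASH. The largest was cox-6A (tag-174 in the table), at 807 FPKM against 588 with 0.54 (DESeq2 adjusted p = 0.18, unadjusted 0.0387) in the authors' deposited table. These 7 genes are short, with a median coding length (defined below) of 384 bases. Tested genes of at least 5 FPKM in the length bins around it, with median lengths of 258 and 423 bases, had medians of 0.21 and 0.23. The part of length in the 7 signs was not tested.

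ATP synthase was the most abundant complex among the members, and its 8 genes all had positive signs. The catalytic beta subunit gene atp-2 led with 1313 FPKM in ASH against 1191 in the authors' deposited table, a log2 fold change of 0.16 (DESeq2 adjusted p = 0.678). The largest change was 0.40 for atp-4, a subunit of the stalk, at 1076 FPKM against 799 (DESeq2 adjusted p = 0.372) in the authors' deposited table. In FPKM, too, all 8 were above their non-ASH value, but 0 passed by either tool and 0 at an unadjusted DESeq2 p under 0.05. The alpha subunit gene atp-1 is H28O16.1 in the table and so no member; it had 1152 FPKM against 1042 there.

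**Figure D2:**
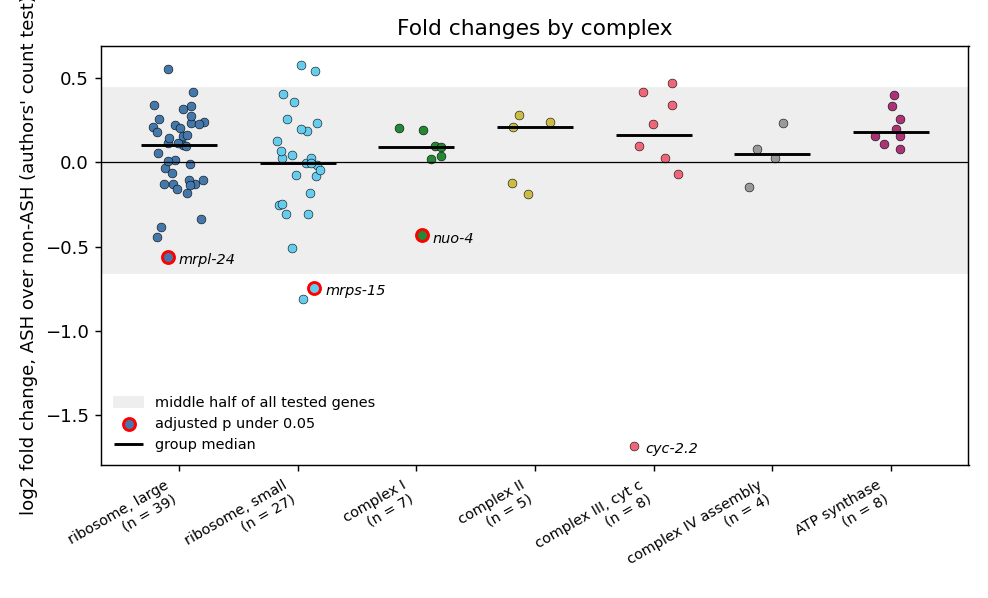
DESeq2 log2 fold change (ASH over non-ASH, y axis) of each member by complex (x axis, with the number of genes), as deposited by the authors; bars are group medians, red rings mark an adjusted p under 0.05, and the grey band spans the quartiles of all tested genes, -0.66 to 0.44. The 3 ringed genes, mrpl-24, mrps-15 and nuo-4, are all below 0, and all ATP synthase points are above 0.

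Several subunits are coded by paralogs, which allows a comparison of copies within a fraction. Cytochrome c is made from cyc-2.1 and cyc-2.2, and cyc-2.2 supplied 0.412% of their summed FPKM in ASH and 2.58% in non-ASH. The authors' deposited table listed cyc-2.2 at 7.16 FPKM in ASH against 34.5, 4.81-fold more in non-ASH, and its DESeq2 value of -1.69 on the log2 scale did not pass (DESeq2 adjusted p = 0.118, Cuffdiff q = 0.402). Its locus overlaps that of cubn-1 on the opposite strand in the WBcel235 annotation, and cubn-1 was lower in ASH, at 0.215 FPKM against 2.68 with -3.51 (DESeq2 adjusted p = 1.46e-08) in the authors' deposited table. Whether reads were counted by strand was not given in the sources read here, and the part of cubn-1 in the value of cyc-2.2 was not tested. The abundant copy, cyc-2.1, had 0.34 (DESeq2 adjusted p = 0.479) in the authors' deposited table.

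Subunit b of ATP synthase is coded by asb-1, known as the germline form in this worm, and asb-2. Both were abundant in both fractions, with asb-1 at 395 FPKM in ASH against 343 and asb-2 at 314 and 272 in the authors' deposited table. The share of asb-1 was 55.7% of their sum in ASH and 55.8% in non-ASH. The 10 germline markers summed to 1876 and 2328 FPKM in the same fractions, and their part in this share was not tested. Subunit g divided in much the same way, with asg-1 at 57.6% in ASH and 55.9% in non-ASH. Of the core 2 genes of complex III, ucr-2.1 held 44.2% of the sum in ASH and 35.5% in non-ASH, ucr-2.3 40.1% and 47.0%, and ucr-2.2 15.6% and 17.6%. For the flavoprotein of complex II, sdha-2 held 65.97% and 69.8%. No test of these shares was possible with 1 value per group.

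**Figure D3:**
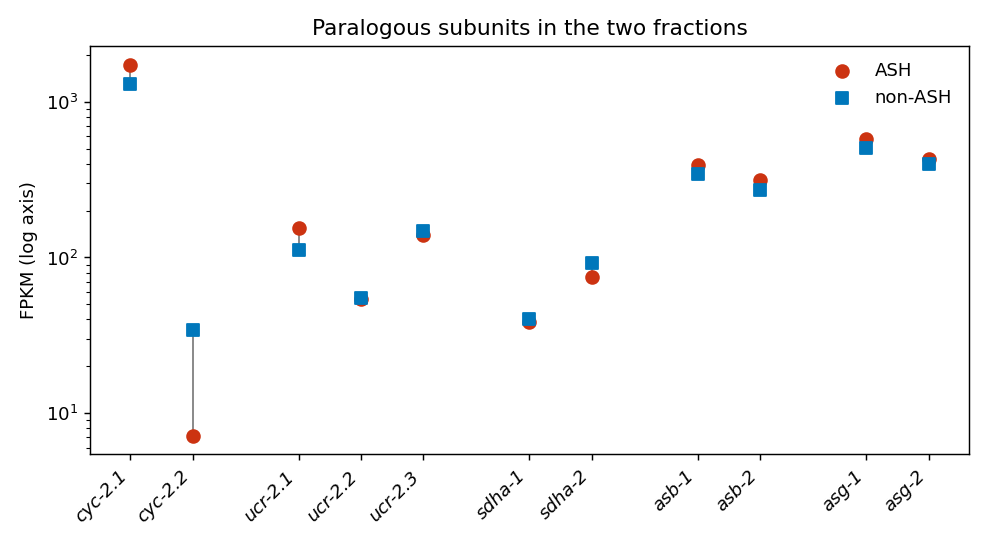
FPKM (log axis) of each paralogous subunit gene in ASH (circles) and non-ASH (squares), 1 authors' value per group, with a line joining the 2 values of a gene. The widest gap is that of cyc-2.2, with 7.16 in ASH and 34.5 in non-ASH, followed at a distance by ucr-2.1 and cyc-2.1, which are higher in ASH.

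The fold changes of the members went with their length and their level. Coding length is the longest coding sequence of a gene in the WBcel235 annotation. Spearman's rho between log2 fold change and coding length was -0.30 over the 98 members, -0.48 over the 66 ribosomal genes and -0.21 over the other 32. The same rho was -0.24 over 9597 tested genes with a coding length and at least 5 FPKM in either group, so the direction was not limited to the members. In 3 bins by length, the 23 ribosomal genes of 231 to 549 bases had a median log2 fold change of 0.16 and 18 positive signs, the 21 of 561 to 792 bases 0.07 and 14, and the 22 of 795 to 1569 bases -0.15 and 5. All 3 genes that fell were longer than the members' median of 693 bases, nuo-4 with 1308, mrps-15 with 990 and mrpl-24 with 834. The short cyc-2.2, with 369 bases, was an exception. Against mean FPKM of both groups the rho was 0.58 over the members and 0.17 over the same 9597 genes. Mean level includes the ASH value and is itself related to length (rho = -0.57 over the ribosomal genes), so these relations are not separate. They are descriptions over genes that share their libraries, and the part of length or level in any single difference was not tested.

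**Figure D4:**
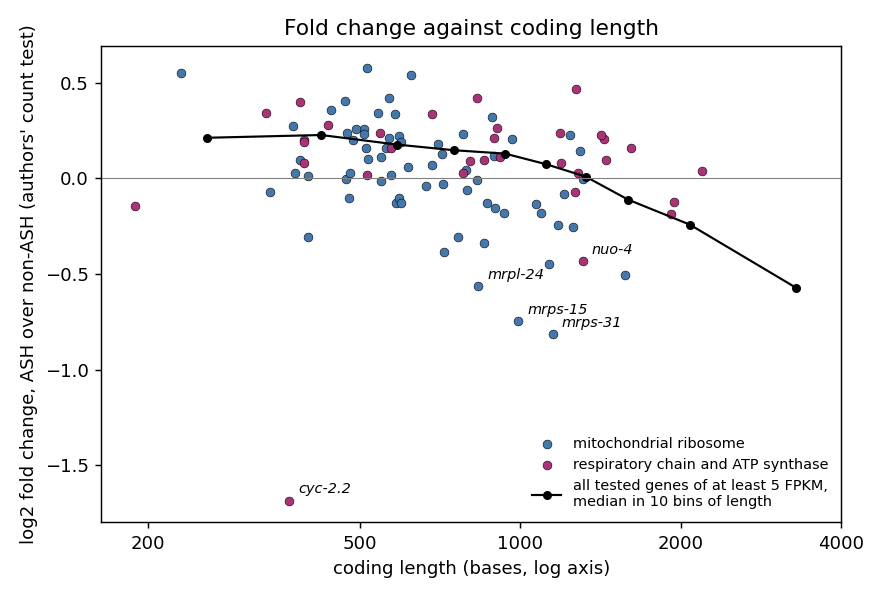
DESeq2 log2 fold change (ASH over non-ASH, y axis) against coding length in bases (log x axis), 1 point per member, with a line for the median of all tested genes of at least 5 FPKM in 10 bins of equal size by length. The line falls from 0.21 in the shortest bin to -0.57 in the longest, and long ribosomal genes lie mostly below 0.

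By the chromosome given in the table, 0 of the 66 ribosomal genes and 6 of the 32 respiratory genes lay on X, which holds 14.4% of tested protein-coding genes. The 6 were gas-1, sdha-1, ucr-2.1, ucr-2.2, asb-2 and asg-2. None of them passed the test by DESeq2 or Cuffdiff, with 1 higher at an unadjusted DESeq2 p under 0.05, ucr-2.1. Chromosome III held the most members, 28. In the WBcel235 annotation mrps-2 and mrpl-4 are direct neighbours on the same strand of chromosome V. A total of 31 members overlap another protein-coding gene there, 7 of them on the same strand, and their values are less certain.

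The rest of the mitochondrial machinery was read from 11 lists of other genes. Of all 16802 tested genes, DESeq2 called 5.32% higher and 4.44% lower, and Cuffdiff called 7.11% in either direction. The counts of each list stand beside these shares. Complex I genes under other names, 25 tested, had 0 higher and 0 lower (0 at an unadjusted DESeq2 p under 0.05 and 0 by Cuffdiff), 22 positive signs and a median log2 fold change of 0.18. Those of complexes III to V, 12 tested with cox-5A (cco-2 in the table) among them, had 0 higher and 0 lower (1 and 0 unadjusted, 0 by Cuffdiff), 11 positive signs and a median of 0.28. Their positive shares were 88% and 91.7%, against 49.9% of tested genes with at least 5 FPKM. These genes are short, with median coding lengths of 528 and 337.5 bases, and of the 10 bins by length in the plot of fold change against coding length the 3 shortest, with median lengths of 258 to 588 bases, had medians of 0.18 to 0.23 over all such tested genes. The part of length in these signs was not tested.

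Enzymes that supply the chain were read from 3 lists, beside the same shares of 5.32% higher and 4.44% lower over all tested genes. Of 19 TCA cycle and pyruvate dehydrogenase genes 0 were higher and 1 lower, with 8 positive and 11 negative signs and a median of -0.03. It was the isocitrate dehydrogenase gene idh-2, at 16.7 FPKM against 30.4 and -0.87 (DESeq2 adjusted p = 0.0495) in the authors' deposited table. Of 19 glycolysis genes 1 was higher and 0 lower, with 10 positive and 9 negative signs and a median of 0.09. This was the aldolase gene aldo-2, at 1415 FPKM against 775 and 0.85 (DESeq2 adjusted p = 0.0299) in the authors' deposited table. Of 8 genes for ubiquinone synthesis 0 were higher and 1 lower (0 and 3 at an unadjusted DESeq2 p under 0.05), with 2 positive and 6 negative signs and a median of -0.07. The lower one was coq-8, a kinase-like gene, at 10.98 FPKM against 27.2 (DESeq2 adjusted p = 0.00967, Cuffdiff q = 0.0246) in the authors' deposited table. The hydroxylase gene clk-1 of that pathway, known from long-lived mutants, stood at 57.2 FPKM against 58.5. Of these genes Cuffdiff called coq-8 only.

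The last 6 lists hold genes that build and maintain mitochondria. Median coding lengths were 1374 bases for translation, 1404 for chaperones, proteases and stress genes, and 543 for import. They were 1704 for fusion, fission and transport, 1812 for mitochondrial DNA and 939 for carriers. In the bins of tested genes by length, those with median lengths of 1326, 1593 and 2079 bases had medians of 0.01, -0.11 and -0.24. The part of length in the list medians below was not tested. Among 17 factors and tRNA synthetases of mitochondrial translation 0 were higher and 1 lower, where 5.32% and 4.44% of all tested genes were. In this list 2 signs were positive and the median was -0.32. The isoleucyl-tRNA synthetase gene iars-2 had 13.01 FPKM against 37.7 and -1.17 (DESeq2 adjusted p = 0.00353, Cuffdiff q = 0.0179) in the authors' deposited table. Of 15 tested import genes, 9 with a positive sign, 0 were higher and 1 was lower, the processing peptidase gene mppb-1, at -0.41 (DESeq2 adjusted p = 0.0358, Cuffdiff q = 0.601) in the authors' deposited table, and the median was 0.10. Of 17 chaperone, protease and stress genes 1 was higher and 1 lower by DESeq2, and 0 and 2 by Cuffdiff, with 4 positive signs and a median of -0.18. The DESeq2 calls were dct-1, a mitophagy receptor gene, at 73.4 FPKM against 43.2 and 0.87 (DESeq2 adjusted p = 0.0136, Cuffdiff q = 0.25), and sod-3, a mitochondrial superoxide dismutase gene, at 3.27 against 24.9 and -2.55 (DESeq2 adjusted p = 0.00163, Cuffdiff q = 0.00464), in the authors' deposited table. Cuffdiff called sod-3 and lonp-1 (C34B2.6 in the table), a mitochondrial protease gene, to which the authors' deposited table gave 13.8 FPKM against 30.98 (Cuffdiff q = 0.0409, DESeq2 adjusted p = 0.215). The lists for fusion, fission and transport (9 tested, 4 positive, median -0.42), mitochondrial DNA (5 tested, 1 positive, -0.23) and carriers (7 tested, 4 positive, 0.05) had 0 higher and 0 lower, 0 by Cuffdiff, and at an unadjusted DESeq2 p under 0.05 2 higher and 3 lower, 0 and 1, and 0 and 0.

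**Figure D5:**
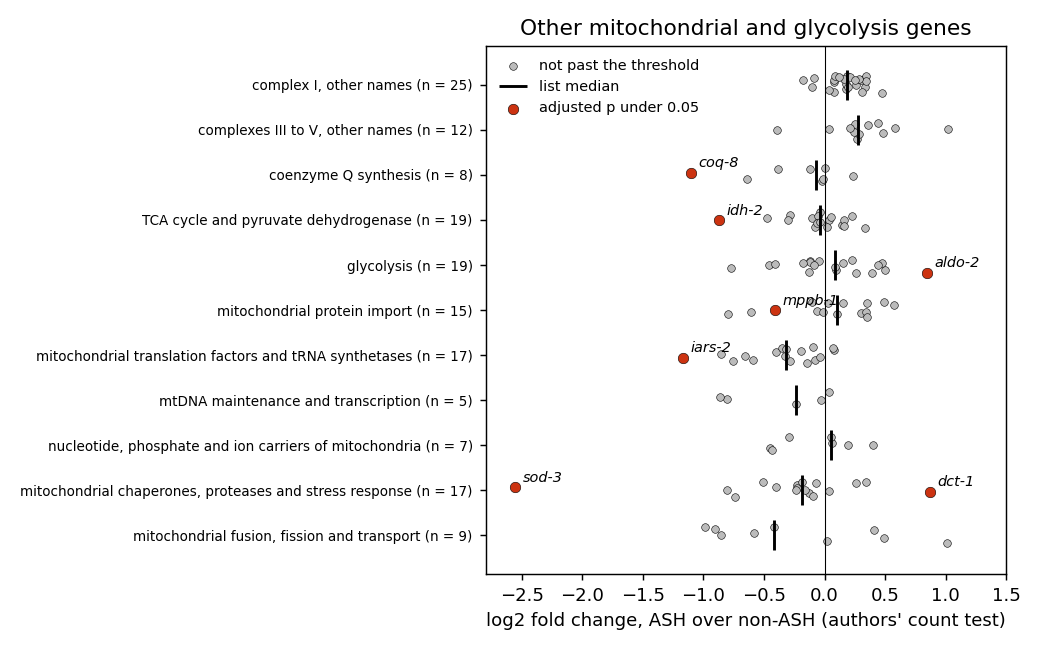
DESeq2 log2 fold change (ASH over non-ASH, x axis) of the tested genes of 11 other mitochondrial and glycolysis lists (y axis, with the number tested), as deposited by the authors; black bars are list medians and red points have an adjusted p under 0.05. Red points are coq-8, idh-2, mppb-1, iars-2 and sod-3 below 0 and aldo-2 and dct-1 above 0.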

How the data were processed

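Strand-specific libraries of poly(A)-selected RNA were made from sorted cells, per the labels' protocols, and the authors compared 5 ASH with 5 non-ASH libraries. The submitters' processing notes name the aligner TopHat2 2.0.13 on Bowtie2 2.2.1, HTSeq and DESeq2 for counts, and Cufflinks and Cuffdiff. The build, annotation and counting rules were not given in the sources read here, hence no coordinates are printed. From the authors' deposited table of 46273 rows, 1 repeated row was dropped. Its group values are Cuffdiff FPKM with 1 added by the authors, per the file headers and the values, and the 1 was subtracted here. As log2 fold changes the authors deposited those of Cuffdiff (the log2 ratio of these values, recomputed) and of DESeq2. The p-values and adjusted p were deposited by the authors for each tool, and DESeq2's adjusted p equals a Benjamini-Hochberg adjustment over 16802 genes. No fit across genes was made here, since only group values were used: the authors' calls were counted. Depth per library is unknown, and no interval is given.

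Groups were taken from the titles. The members and lists were chosen with earlier results of these data known, so counts and medians are descriptions without a list test. Counting was tested on simulated data with planted calls, which checks the counting code only. Named genes were the called members, the most abundant and most changed of each complex, paralogs, classical mutant genes and up to 3 called genes of each other list. The 7 complex IV subunits, atp-1, mrps-18C, lonp-1, gld-1, cox-10, mrpl-1, mrps-30 and overlapping or adjacent genes were added after values were seen. Current symbols, found for all 98 members, differed for 1, mrpl-14 (now F45E12.5). Coding lengths and overlaps come from Ensembl's WBcel235 annotation. Python 3.11.15, pandas 2.3.3 and SciPy 1.17.1 were used.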

Additional observations from a re-analysis of the deposited data

How the results depend on the processing

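The count of members higher in ASH was 0 in the main count and under all 6 alternatives tried, but not every alternative could have raised it. Those that could were Cuffdiff's q and members by current symbol as well. The others were an adjusted p under 0.01, a change of at least 2-fold, both tools together and a floor of 5 FPKM. These can only keep or lower a count, so their 0 was fixed in advance. The 3 lower members depended on the rule: 1 (nuo-4) at an adjusted p under 0.01, and 0 at 2-fold, by Cuffdiff's q and by both tools, since the authors' Cuffdiff q was 0.491 for mrpl-24, 0.189 for mrps-15 and 0.43 for nuo-4. The cause of the difference between the tools was not tested. With the 16 genes added by current symbol the count was again 3. The floor removes no member, so the 3 under it was fixed in advance. The median log2 fold change of 0.09 lay between 0.06 and 0.10 under its 6 alternatives, among them the floor, which cannot change it. FPKM ratios with pseudocounts of 0.1, 1 and 5 gave members 0.22, 0.17 and 0.11 above the median of all tested genes, against 0.18 by DESeq2. Against tested genes with at least 5 FPKM in either group, a background added after seeing the data, the DESeq2 offset was 0.094, a smaller one by over 1.5 times, and the FPKM offsets were 0.13, 0.13 and 0.12. No paired analysis was possible because only 1 value per group was used, and leaving out libraries was not run for the same reason. What depth the libraries had, and so the smallest change a test could have found, cannot be read from these values.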
